A study of Homo sapiens with 4 samples.

Results

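The genes described here encode plasma membrane and lysosomal amino acid transporters of the SLC1A, SLC3A, SLC7A and SLC38A families. Members were all protein-coding genes whose symbol joins 1 of these family names to a number. This rule uses no measured value, but the families were picked with earlier results of these data known. This gave 34 genes out of 27685 Entrez gene IDs in the files: 7 SLC1A, 2 SLC3A, 13 SLC7A and 12 SLC38A genes. Their RNA was measured by RNA-seq in NCC-IT-A3, a human embryonal carcinoma cell line. Barasertib, a selective inhibitor of the mitotic kinase Aurora B, was given at 100 nM for 4 days to the cells of 2 libraries, and DMSO, its solvent, to those of the other 2. All cells grew in RPMI medium with fetal serum, and a single line stands for both groups. Nothing in the labels tells whether the 2 libraries of a condition were separate cultures. The p-values therefore measure only the spread between these libraries, which may be technical.

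Amino acid carriers of these families set what a cell can take up, keep and exchange. SLC1A proteins carry glutamate and aspartate, or exchange small neutral amino acids such as serine, alanine and glutamine. SLC3A proteins are heavy chains that bring SLC7A light chains to the cell surface: SLC3A2, also called CD98 or 4F2hc, pairs with the leucine exchanger SLC7A5 (LAT1) and with the cystine and glutamate exchanger SLC7A11 (xCT). Further SLC7A proteins carry arginine and lysine without a heavy chain. SLC38A proteins include the sodium-coupled glutamine and alanine carriers of systems A and N, and lysosomal members that release amino acids or report them to the growth kinase complex mTORC1. Tumour cells commonly express SLC1A5, SLC7A5 and SLC3A2 strongly, and several of these genes are known targets of ATF4, the transcription factor of the amino acid response.

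The deposited values do not give read numbers. Aligned sequence, estimated from coverage and FPKM, ran to 4.59 and 4.525 Gb with barasertib, against 4.22 and 4.43 Gb with DMSO. All 9 embryonal carcinoma markers passed the filter, and they summed to 6500 and 6127 TPM (a transcript level scaled for length and library total) with barasertib, against 5541 and 5436 TPM with DMSO. POU5F1 alone had 3999 and 3949 TPM with barasertib and 3708 and 3524 TPM with DMSO. In TPM 5 of the 9 were called higher and 1 lower, beside 22.0% and 7.44% of all tested genes. The 3 scalings used were TPM, median-of-ratios and quantile normalisation. With every one, 2 of the 9 were higher (NANOG and DNMT3B) and 1 lower, beside 10.0% and 7.05% of all tested genes. POU5F1 had a log2 change of 0.0015 with median-of-ratios scaling and 0.32 with quantile normalisation. Replicates differed widely for PODXL with barasertib (506 and 167 TPM) and DPPA4 with DMSO (90.4 and 188 TPM). Of 26 markers of seminoma and germ cells, yolk sac, trophoblast, fibroblasts, neural cells and blood, 5 passed the filter, and 6 (APOA2, APOB, CGB3, PTPRC, CD3E and HBB) were listed at 0 in all libraries. The 4 trophoblast markers summed to 4.50 and 6.87 TPM with barasertib and 1.15 and 1.61 TPM with DMSO. Of these sums PGF made up 4.497 and 6.15 TPM with barasertib and 0.618 and 1.58 TPM with DMSO. The 5 fibroblast markers summed to 11.6 and 11.9 TPM with barasertib and 7.52 and 7.93 TPM with DMSO, mostly from PDGFRA. COL1A1, at 1.41 and 0.990 TPM with barasertib and 0.497 and 0.210 TPM with DMSO, and LUM, at 0.0959 and 0.294 TPM with barasertib and 0 and 0.0492 TPM with DMSO, were also higher in both barasertib libraries, while COL1A2 and DCN were at or near 0. The neural markers summed to 188 to 192 TPM with barasertib and 187 to 198 TPM with DMSO, nearly all from TUBB3, which was called higher (log2 change 0.34, limma adjusted p = 0.0143), and STMN2, which was called lower (-0.32, limma adjusted p = 0.0211). In all, 3 of the 5 tested markers of other cell types were called higher in TPM (PGF, PDGFRA and TUBB3) and 1 lower. The calls of PDGFRA and TUBB3 were lost with median-of-ratios scaling and with quantile normalisation, while PGF and STMN2 kept theirs. The remaining lists summed to at most 3.22 TPM in any library. The part of these markers in the results below was not tested, and in bulk RNA fewer cells of a type and less RNA per cell cannot be told apart.

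The summed transporter RNA was lower with barasertib, and the members that fell included SLC3A2, SLC7A5 and SLC1A5, the most abundant with DMSO. By family, the SLC1A, SLC3A and SLC7A sums were lower with barasertib. The SLC38A sum was higher in TPM, at 311 ± 7.07 TPM with barasertib and 293 ± 13.6 TPM with DMSO (SD, n = 2 each). Its nearest libraries almost touched, at 306 TPM with barasertib and 303 TPM with DMSO. With median-of-ratios scaling, the log2 ratios of 2 parts of this sum were 0.020 (system A) and -0.17 (other SLC38A genes). The 34 genes summed to 1478 and 1465.5 TPM in barasertib libraries, against 1873 and 1954 TPM in DMSO libraries. The means were 1472 ± 8.98 TPM with barasertib and 1913 ± 57.2 TPM with DMSO (SD, n = 2 each), which is 23.1% lower with barasertib. Single genes were tested with limma on log2(TPM + 1) across the 13938 genes that averaged 1 TPM or more, and a gene was called at a Benjamini-Hochberg adjusted p under 0.05. Of the 34 members 19 passed that filter. Barasertib raised 2 of these 19, SLC7A8 and SLC38A10, where 22.0% of all tested genes were called higher. It lowered 7 of them, SLC7A5, SLC1A4, SLC1A3, SLC7A11, SLC7A2, SLC1A5 and SLC3A2, where 7.44% of all tested genes were called lower. The other 10 were not called. The median log2 change of the 19 was -0.14, and that of all tested genes was 0.11.

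The 2 higher calls depended on the processing. Both were lost under either other scaling. With TPM kept, both were also lost with no filter, with no variance trend, or without barasertib replicate 1 or DMSO replicate 2. Median-of-ratios scaling and quantile normalisation each shifted the median change of all genes by -0.12 in log2 units. With every one of the 3 scalings, 0 members were called higher and 7 lower, against 10.0% and 7.05% of all tested genes. Read without a test, 5 of the 19 had both barasertib libraries above both DMSO libraries (49.1% of all tested genes), and 11 had both below (19.7%). The 3 genes whose groups overlapped were SLC38A12, SLC7A3 and SLC7A6.

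**Figure D1:**
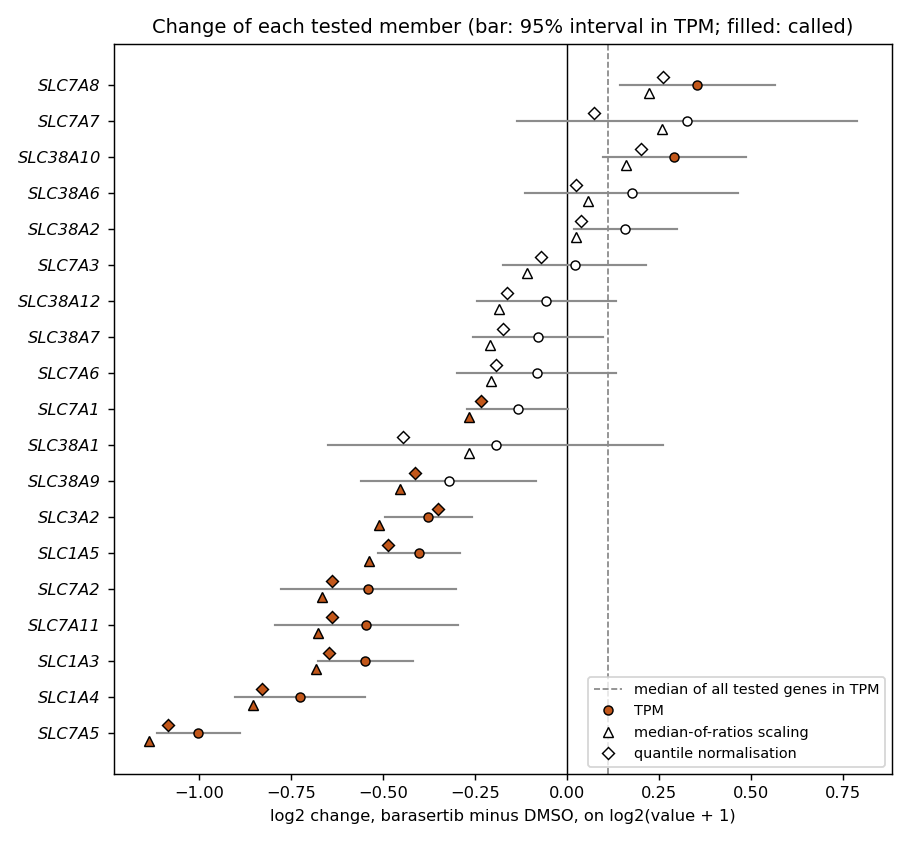
Log2 change (barasertib minus DMSO) of the 19 tested transporter genes, on the log2(value + 1) scale, with the 95% interval in TPM as a bar, the other 2 scalings as triangles and diamonds, and called values filled. SLC7A5 lies lowest at -1.003 and SLC7A8 highest at 0.35, and the 7 genes called lower in TPM stay filled under all 3 scalings while the 2 called higher do not.

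Among the heavy chains, which carry the light chains to the membrane, SLC3A2 was the most abundant member in every library. In hg19 it lies on the plus strand of chr11:62623484-62656355. It stood at 512 and 505 TPM with barasertib and at 635 and 689 TPM with DMSO. Both barasertib libraries were below both DMSO libraries. SLC3A2 fell by 0.38 on the log2 scale (SE 0.05, limma adjusted p = 0.00368), with means of 509 ± 5.05 TPM with barasertib and 662 ± 38.2 TPM with DMSO (SD, n = 2 each). Its share of all transporter TPM was 34.7% and 34.5% with barasertib and 33.9% and 35.3% with DMSO, so this share overlapped between the groups. SLC3A1, the renal heavy chain mutated in cystinuria, was below the filter at 0.188 and 0.447 TPM with barasertib and 0 and 0.0783 TPM with DMSO. In hg19 its locus overlaps PREPL on the opposite strand by 3215 bases, and the sources do not tell whether the authors' summary used strand.

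The light chain SLC7A5 showed the largest fall among the tested members. SLC7A5, which exchanges leucine and other large neutral amino acids, had 175 and 166 TPM with barasertib, against 341 and 344 TPM with DMSO. The replicates lay close together and the groups were far apart, with means of 171 ± 6.79 TPM with barasertib and 343 ± 1.84 TPM with DMSO (SD, n = 2 each). The log2 change was -1.003 (SE 0.05, 95% interval -1.12 to -0.89, limma adjusted p = 0.000249). It was called lower in all 14 alternative settings, with adjusted p between 5.98e-06 and 0.00759. Among the tested genes SLC7A5 stood at percentile 93.2 of expression with barasertib and 97.2 with DMSO. The gene lies on the minus strand of hg19 chr16:87863622-87903105, and its near copy SLC7A5P2 was listed at 1.56 and 1.23 TPM with barasertib and 1.53 and 1.51 TPM with DMSO.

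SLC7A11, the cystine importer that feeds glutathione synthesis, was likewise lower. It had 39.7 and 46.2 TPM with barasertib and 58.5 and 67.8 TPM with DMSO, with no overlap. The log2 change was -0.55 (SE 0.10, limma adjusted p = 0.0122), and without barasertib replicate 1 the call was lost (adjusted p = 0.0656). An antisense gene, SLC7A11-AS1, overlaps it by 14084 bases in hg19 and was listed at 0.221 and 0.276 TPM with barasertib and 0 and 0.0415 TPM with DMSO.

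SLC7A8 (LAT2), which carries small and large neutral amino acids, went the other way. It had 36.0 and 31.6 TPM with barasertib, against 27.2 and 25.2 TPM with DMSO, again without overlap. The log2 change was 0.35 (SE 0.09, limma adjusted p = 0.0283). The call held in 8 of 14 alternatives and was lost with median-of-ratios scaling (adjusted p = 0.121) and quantile normalisation (0.0869), among others, while the change stayed positive. SLC7A6 (y+LAT2), which exchanges cationic for neutral amino acids, had 10.5 and 11.2 TPM with barasertib and 11.2 and 11.9 TPM with DMSO, which overlap (log2 change -0.08, limma adjusted p = 0.512). Its locus overlaps SLC7A6OS on the opposite strand by 1209 bases. SLC7A7 (y+LAT1) had 1.35 and 1.12 TPM with barasertib and 0.774 and 0.797 TPM with DMSO, and was not called (log2 change 0.33, limma adjusted p = 0.24). SLC7A10 (asc-1), a carrier of small neutral amino acids, was below the filter at 1.03 and 0.392 TPM with barasertib and 0.907 and 0.389 TPM with DMSO.

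Because heavy and light chains act in pairs, their proportions were taken within each library, where the scaling of a library cancels. SLC7A5 over SLC3A2 was 0.342 and 0.328 with barasertib and 0.537 and 0.499 with DMSO. SLC7A8 over SLC3A2 was 0.0702 and 0.0626 with barasertib and 0.0428 and 0.0366 with DMSO. SLC7A5 over SLC7A8 was 4.87 and 5.24 with barasertib, against 12.5 and 13.6 with DMSO. Relative to the heavy chain, then, SLC7A5 was lower and SLC7A8 higher in both barasertib libraries. SLC7A11 over SLC3A2 was 0.0774 and 0.0915 with barasertib and 0.0921 and 0.0985 with DMSO, where the nearest libraries almost touched. The 6 light chains that pair with SLC3A2 summed to 260 ± 5.32 TPM with barasertib and 445 ± 7.22 TPM with DMSO (SD, n = 2 each). SLC7A5 made up 66.5% and 64.7% of that sum with barasertib and 77.6% and 76.4% with DMSO, and SLC7A8 13.6% and 12.3% with barasertib and 6.18% and 5.60% with DMSO. With 2 libraries a group, an exact permutation test of such ratios cannot reach 0.05, so they are given as values.

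**Figure D2:**
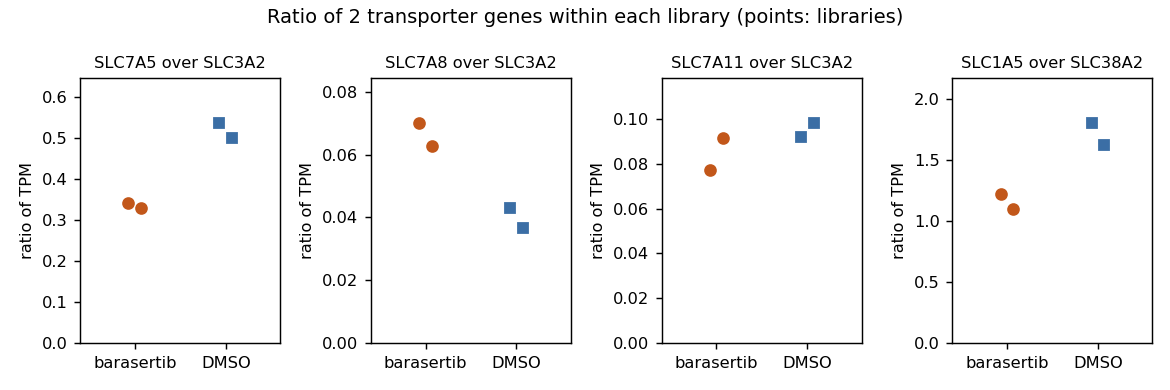
Ratio of the TPM of 2 transporter genes within each library (y axis from 0, no unit), with barasertib libraries as circles and DMSO libraries as squares. SLC7A5 over SLC3A2 is 0.342 and 0.328 with barasertib and 0.537 and 0.499 with DMSO, SLC7A8 over SLC3A2 lies higher with barasertib, and no panel overlaps.

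All 3 tested SLC1A genes fell, and each kept its call in all 14 alternatives. SLC1A5 (ASCT2), the main glutamine exchanger of many tumour lines, lies on the minus strand of hg19 chr19:47278140-47291842 and had 221 and 211 TPM with barasertib, against 291 and 281 TPM with DMSO. The groups did not overlap, and the log2 change was -0.40 (SE 0.05, limma adjusted p = 0.00257). SLC1A4 (ASCT1), which exchanges serine, alanine and other small neutral amino acids, had 15.2 and 15.6 TPM with barasertib and 25.5 and 26.8 TPM with DMSO. Its replicates were within 2 TPM of each other in both groups, and it fell by 0.73 on the log2 scale (SE 0.07, limma adjusted p = 0.00172). SLC1A3 (EAAT1), a high-affinity glutamate and aspartate carrier best known from astrocytes, had 62.2 and 63.2 TPM with barasertib, against 90.3 and 94.2 TPM with DMSO. Both barasertib libraries were lower, with a log2 change of -0.55 (SE 0.05, limma adjusted p = 0.0016). SLC1A4 over SLC1A5 was 0.0687 and 0.0740 with barasertib and 0.0875 and 0.0955 with DMSO, and SLC1A5 over SLC7A5 was 1.26 and 1.28 with barasertib and 0.853 and 0.817 with DMSO, so the falls differed in size.

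Promoter sequence was read for these genes because they moved together. RefSeq start-site windows on GRCh38.p14, of 300 bases with 250 before the start, were given for 26 of the 34 members, in 43 windows. There was none for SLC1A2, SLC38A3, SLC3A1, SLC7A2, SLC7A3, SLC7A4, SLC7A11 or SLC7A13. Each window was searched on both strands for the C/EBP-ATF response element, in the letters TGATGCAA, which ATF4 binds with C/EBP partners in amino acid response genes. It was found in the windows of 3 of 26 members, SLC1A3, SLC1A4 and SLC1A5, against 0.903% of 15843 protein-coding genes and 0.866% of 35116 windows. The split by call is given for every motif below, with no test, since the falls prompted the search: these letters were in 3 of the 5 members that fell and have a window and in 0 of the other 11 tested members with a window. The stretches below show the element in capitals, 5′ to 3′ on the strand of the gene. The SLC1A4 stretch is chr2:64989319-64989418 on the plus strand, where the element runs on the opposite strand from position -7 to 1 relative to the start, in 1 of 2 windows. The SLC1A3 stretch is chr5:36596338-36596437 on the plus strand, with the element at -220 to -213 in 1 of 3 windows. The SLC1A5 stretch is chr19:46784865-46784964 on the minus strand, with the element at -97 to -90 in 1 of 3 windows. The windows without the element include chr5:36606356-36606655 for SLC1A3 and chr19:46787244-46787543 for SLC1A5. Which start the measured RNA came from was not determined.
SLC1A4: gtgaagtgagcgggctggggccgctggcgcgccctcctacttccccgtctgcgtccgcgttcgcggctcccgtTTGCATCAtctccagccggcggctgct
SLC1A3: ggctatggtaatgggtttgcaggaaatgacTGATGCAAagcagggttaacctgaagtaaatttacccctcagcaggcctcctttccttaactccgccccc
SLC1A5: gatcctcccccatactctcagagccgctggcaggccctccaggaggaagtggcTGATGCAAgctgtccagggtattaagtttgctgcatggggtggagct

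The window of SLC7A5, the member with the largest fall, held other motifs. It is shown from -150 to 20, chr16:87869488-87869657 on the minus strand, with an E-box (CACGTG, the site of MYC-family factors) at -130 to -125 and an antioxidant response element (TGACNNNGC, the site of NRF2) at -2 to 7 in capitals.
SLC7A5: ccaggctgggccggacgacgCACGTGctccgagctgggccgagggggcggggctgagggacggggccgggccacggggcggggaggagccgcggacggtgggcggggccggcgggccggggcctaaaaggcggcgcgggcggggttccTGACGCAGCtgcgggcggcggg

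The looser letters TGATGNAA, which include every match of the first motif, were in the windows of 6 of 26 members and of 3.6% of protein-coding genes, adding SLC3A2, SLC38A1 and SLC7A1. They were in 4 of the 5 members that fell and 2 of the other 11. The antioxidant element was in 7 of 26 members and 17.9% of genes, and in 4 of the 5 that fell and 3 of the other 11. The E-box was in 7 of 26 members and 10.9% of genes, and in 2 of the 5 that fell and 3 of the other 11. The unfolded protein response letters TGACGTGG were in 2 of 26, SLC7A8 and SLC7A6, and in 1.05% of genes, so in 0 of the 5 that fell and 2 of the other 11. The SLC7A6 match overlaps an antioxidant match. A match says only that these letters are in the window.

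The cationic carriers, which import arginine and lysine, moved unequally. SLC7A2 (CAT2), a carrier with an inducible role in arginine supply, had 12.2 and 13.1 TPM with barasertib and 17.5 and 20.2 TPM with DMSO. There was no overlap and it fell by 0.54 on the log2 scale (SE 0.10, limma adjusted p = 0.0108). Without barasertib replicate 1 the log2 change was -0.49 and the call was lost (limma adjusted p = 0.0644). SLC7A1 (CAT1), the widely expressed arginine carrier, had 51.2 and 53.2 TPM with barasertib, against 56.9 and 57.9 TPM with DMSO. These were lower without overlap but not called (log2 change -0.14, limma adjusted p = 0.12), while median-of-ratios scaling (adjusted p = 0.0188) and quantile normalisation (0.03) called it lower. SLC7A3 (CAT3) had 33.2 and 29.9 TPM with barasertib and 32.2 and 30.0 TPM with DMSO, which overlap, with a log2 change of 0.02 (95% interval -0.17 to 0.21, limma adjusted p = 0.865) that turned to -0.11 under median-of-ratios scaling. Whether the changes of the cationic carriers differ from each other was not tested.

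In the SLC38A family 1 of 7 tested genes was called higher and 0 lower, beside 22.0% and 7.44% of all tested genes. SLC38A2 (SNAT2), the system A glutamine and alanine carrier that cells induce on amino acid starvation, had 181 and 192 TPM with barasertib and 161 and 173 TPM with DMSO. Both barasertib libraries were above both DMSO libraries, and the log2 change of 0.16 (SE 0.06) missed the threshold (limma adjusted p = 0.0867). The median change of all tested genes in TPM was 0.11. With median-of-ratios scaling the change of SLC38A2 was 0.023, and with quantile normalisation 0.037. SLC1A5 over SLC38A2, both glutamine carriers, was 1.22 and 1.10 with barasertib, against 1.81 and 1.62 with DMSO. SLC38A1 (SNAT1), the other tested system A gene, was near the filter at 0.926 and 1.19 TPM with barasertib and 1.26 and 1.44 TPM with DMSO (limma adjusted p = 0.464).

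Of the SLC38A members linked to lysosomes, SLC38A9, the arginine-gated sensor upstream of mTORC1, had 30.7 and 36.1 TPM with barasertib and 39.8 and 44.2 TPM with DMSO. The groups did not overlap, and the log2 change of -0.32 (95% interval -0.56 to -0.09) just missed the threshold (limma adjusted p = 0.0524). Median-of-ratios scaling (adjusted p = 0.0205) and quantile normalisation (0.0317) called it lower. It stayed not called in 6 of 14 alternatives and was called lower in the rest. SLC38A7 (SNAT7), which exports glutamine from lysosomes, had 27.0 and 24.8 TPM with barasertib and 27.1 and 27.8 TPM with DMSO, a difference within the replicate spread (log2 change -0.08, limma adjusted p = 0.446).

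SLC38A10, a less studied carrier of glutamine, glutamate and aspartate, had 37.9 and 33.3 TPM with barasertib, against 29.0 and 28.7 TPM with DMSO. It was called higher (log2 change 0.29, SE 0.08, limma adjusted p = 0.0396), but in only 6 of 14 alternatives, and was lost with median-of-ratios scaling (adjusted p = 0.204) and in FPKM (0.052). SLC38A6 had 8.29 and 8.87 TPM with barasertib and 6.77 and 8.26 TPM with DMSO (log2 change 0.18, limma adjusted p = 0.306), and its locus overlaps TRMT5 on the opposite strand by 577 bases. SLC38A12, formerly TMEM104, had 18.3 and 17.1 TPM with barasertib and 18.0 and 18.9 TPM with DMSO (log2 change -0.06, limma adjusted p = 0.607). Neither SLC38A6 nor SLC38A12 was called.

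**Figure D3:**
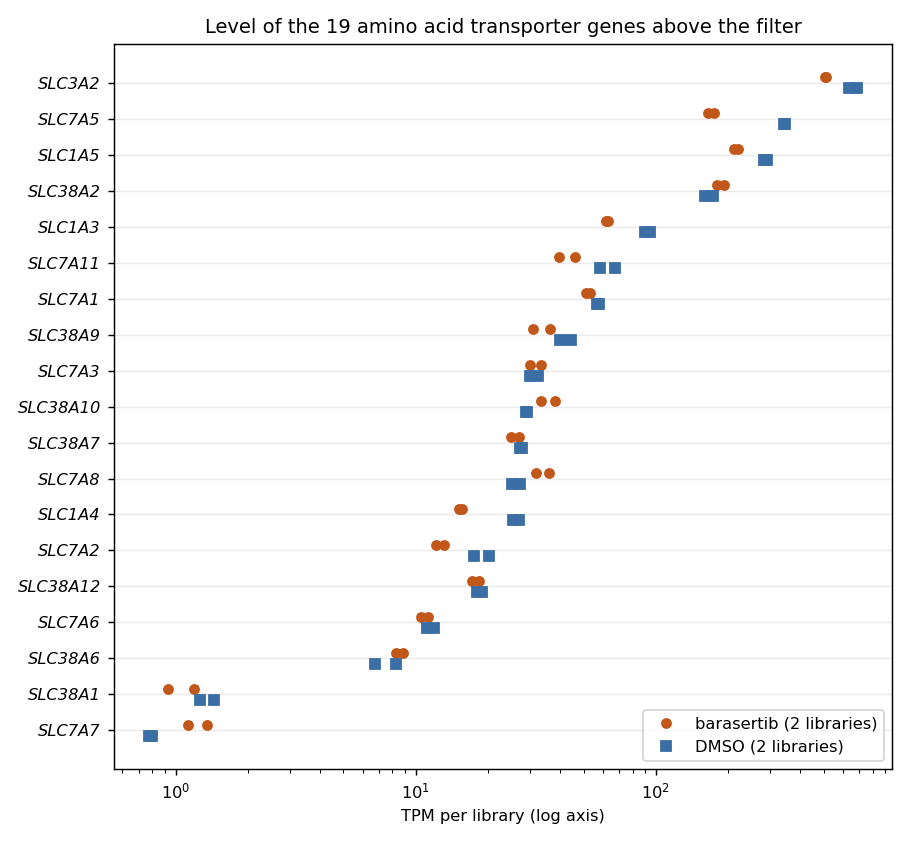
TPM of the 19 tested transporter genes in each library on a log axis, with barasertib libraries as circles and DMSO libraries as squares, ordered by the DMSO mean. SLC3A2 leads both groups, and SLC7A5 lies at 175 and 166 TPM with barasertib and 341 and 344 TPM with DMSO.

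The order of the levels changed near its top. With barasertib the order was SLC3A2, SLC1A5, SLC38A2, SLC7A5 and SLC1A3, and with DMSO it was SLC3A2, SLC7A5, SLC1A5, SLC38A2 and SLC1A3. With barasertib SLC38A2 (181 and 192 TPM) and SLC7A5 (175 and 166 TPM) were neighbours that did not overlap, but their gap was smaller than the replicate spread. With DMSO, SLC7A5, SLC1A5 and SLC38A2 were each apart by more than their spread. Lower in the order, SLC7A1 held rank 6 and SLC38A10 rank 8 with barasertib, against ranks 7 and 10 with DMSO.

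The 15 members below the filter reached at most 1.31 TPM in any library, by SLC38A3. SLC38A8, SLC38A11 and SLC7A13 were listed at 0 in all 4 libraries. Of the other 12, 8 had both barasertib values above both DMSO values and 0 had both below, against 31.8% and 6.67% of all 6114 genes below the filter with a value above 0, at low levels and without a test. SLC1A1 (EAAT3), a neuronal and epithelial glutamate carrier, had 0.635 and 0.596 TPM with barasertib and 0.0875 and 0.199 TPM with DMSO. The system N glutamine carriers SLC38A3 and SLC38A5 summed to 1.82 ± 0.113 TPM with barasertib and 0.681 ± 0.0306 TPM with DMSO (SD, n = 2 each). SLC1A2, SLC1A7, SLC38A4, SLC3A1 and SLC7A14 were the others, none above 0.447 TPM. SLC1A6, SLC7A4, SLC7A9 and SLC7A10 overlapped between the groups.

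Summed by transport activity, the groups parted by direction. The glutamate carriers of system XAG summed to 63.5 ± 0.641 TPM with barasertib and 92.5 ± 2.92 TPM with DMSO (SD, n = 2 each, as for the sums that follow). Nearly all of that sum was SLC1A3, while SLC1A1, SLC1A2 and SLC1A7, all below the filter, were higher in both barasertib libraries. The system ASC exchangers SLC1A4 and SLC1A5 summed to 232 ± 6.42 TPM with barasertib and 312 ± 6.34 TPM with DMSO. System A summed to 187 ± 8.34 TPM with barasertib and 168 ± 8.53 TPM with DMSO, nearly all of it SLC38A2. The sums of systems ASC and XAG were thus lower in both barasertib libraries, and that of system A was higher in both. With median-of-ratios scaling the log2 ratio of system A was 0.020, beside 0.16 in TPM. The cationic carriers summed to 96.4 ± 0.321 TPM with barasertib and 107 ± 1.08 TPM with DMSO. The other SLC38A genes summed to 104 ± 0.538 TPM with barasertib and 106 ± 4.42 TPM with DMSO, which overlap. These are sums of RNA levels, and transport itself was not measured.

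**Figure D4:**
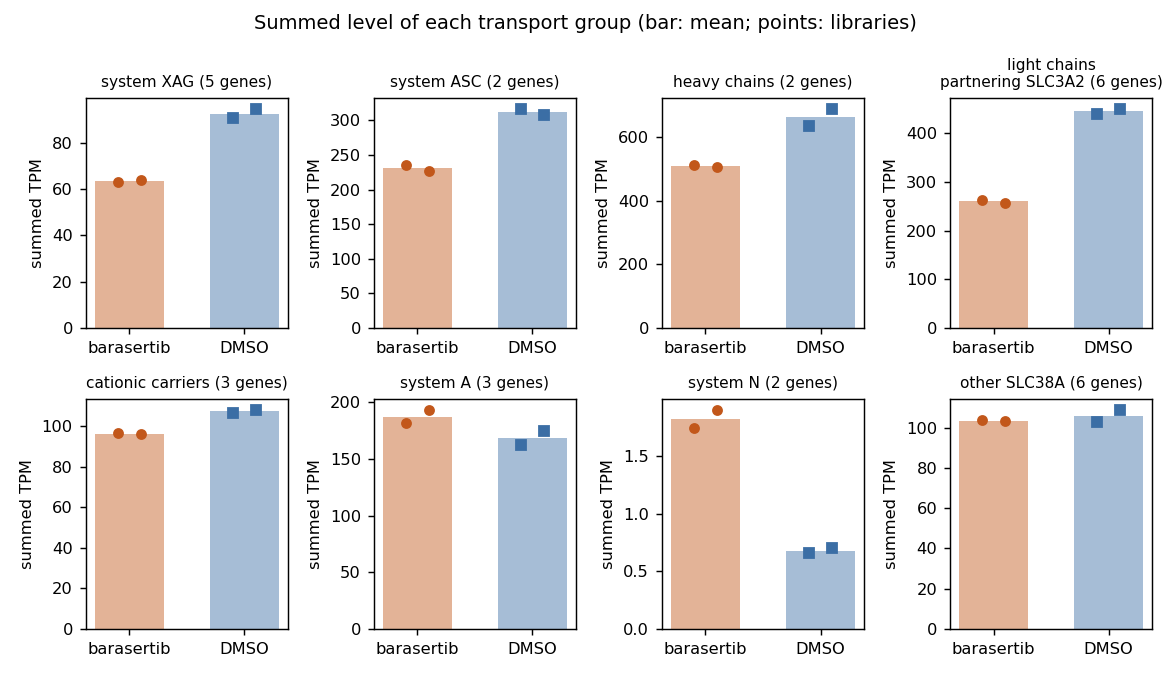
Summed TPM of 8 transport groups (each y axis from 0), with the mean of each condition as a bar and the libraries as points. The light chains of SLC3A2 average 260 TPM with barasertib and 445 TPM with DMSO, and system A averages 187 TPM with barasertib and 168 TPM with DMSO.

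Lists of related genes, picked with the same knowledge, place the transporters beside their pathways. In the list of the amino acid response and ATF4 targets, 17 of 26 genes fell and 1 rose, beside 7.44% and 22.0% of all tested genes, and the same 17 were lower under all 3 scalings. The list's median log2 change was -0.36. ASNS, asparagine synthetase, had 374 and 409.9 TPM with barasertib, against 644 and 683 TPM with DMSO (log2 change -0.76, limma adjusted p = 0.000785). TRIB3, a pseudokinase that restrains ATF4, had 47.5 and 44.9 TPM with barasertib and 94.5 and 94.1 TPM with DMSO (log2 change -1.01, limma adjusted p = 0.00034). NUPR1, a stress-response chromatin protein, and ATF5, a relative of ATF4, changed most, by -2.08 and -1.53 on the log2 scale. ATF3, a stress-induced factor of the same family, was the gene that rose (0.32, limma adjusted p = 0.0091), a call lost with median-of-ratios scaling.

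Among 22 other amino acid carriers, 11 passed the filter, 3 fell and 2 rose, beside 7.44% and 22.0% of all tested genes. SLC6A9, the glycine carrier GlyT1, had 12.8 and 13.2 TPM with barasertib and 32.1 and 36.5 TPM with DMSO, far apart (log2 change -1.33, limma adjusted p = 0.000496). SLC16A10, the aromatic amino acid carrier TAT1, had 29.8 and 31.7 TPM with barasertib, against 18.9 and 17.6 TPM with DMSO (log2 change 0.72, limma adjusted p = 0.00204). The taurine carrier SLC6A6 fell by 0.24 and the lysosomal carrier SLC36A1 by 0.33, while SLC36A4 rose by 0.40, in TPM but under neither other scaling.

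Of 35 genes of mTORC1 amino acid sensing, 5 rose and 3 fell, with a median of 0.01, and 27 were not called. These counts lie near or below the 22.0% and 7.44% of all tested genes called higher and lower. RRAGD, a Rag GTPase that recruits mTORC1 to the lysosome, had 9.08 and 8.91 TPM with barasertib, against 4.10 and 4.17 TPM with DMSO (log2 change 0.96, limma adjusted p = 0.00197). ITFG2 of the KICSTOR complex, the mTORC1 activator RHEB and the leucine sensor SESN1 rose by 0.45, 0.32 and 0.30, SESN1 in TPM but under neither other scaling. FNIP2, a partner of folliculin, CASTOR1, the cytosolic arginine sensor, and SEC13, of the GATOR2 complex, fell by 0.41, 0.31 and 0.16 in TPM.

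Of 23 tested enzymes of glutamine, cystine and glutathione metabolism, 6 rose and 3 fell, beside 22.0% and 7.44% of all tested genes. GLS2, a glutaminase of liver mitochondria, had 2.75 and 3.12 TPM with barasertib and 0.526 and 0.460 TPM with DMSO (log2 change 1.40, limma adjusted p = 0.00325). Its level was higher in both barasertib libraries and low in both groups. The GLS2 mean with DMSO was 0.493 TPM, so it passed the filter of 1 TPM only through the barasertib libraries. ODC1, which makes putrescine, and GSR, which reduces glutathione, rose by 0.59 and 0.46, and ALDH4A1, CBS and GOT1, of proline, cysteine and aspartate metabolism, fell by 0.71, 0.40 and 0.29. Across the related lists, the calls of SLC6A6, SLC36A1, SLC36A4, SESN1, FNIP2, CASTOR1, SEC13, GSR, ALDH4A1 and GOT1 were each lost in at least 2 of the 14 alternatives, with limma adjusted p up to 0.161 for FNIP2.

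**Figure D5:**
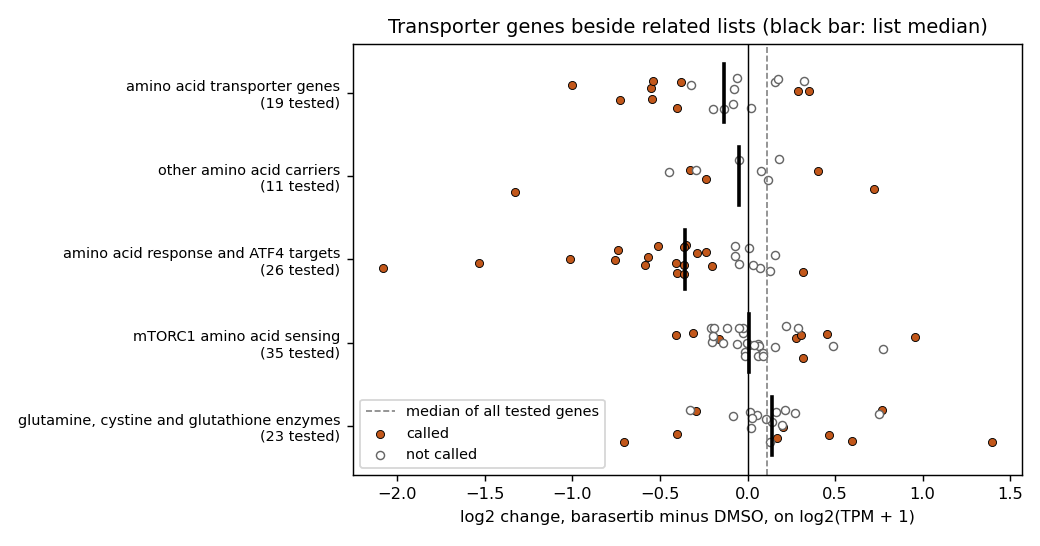
Log2 change (barasertib minus DMSO, on log2(TPM + 1)) of each tested gene of the transporter families and of 4 related lists, with called genes filled, the list median as a black bar and the median of all tested genes (0.11) as a dashed line. The medians of the transporters (-0.14) and of the amino acid response list (-0.36) lie left of the dashed line.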

How the data were processed

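RNA-seq of 2 barasertib and 2 DMSO libraries was analysed from the authors' deposited gene tables. HISAT2, hg19 and StringTie are named in the submitters' processing notes, which give no role for each, and versions, options and strand use are not given in the sources used. Per the file headers, each row holds coverage (mean depth over the gene), FPKM and TPM. The deposited TPM, relative within a library, was summed per Entrez gene ID, coverage over FPKM gave aligned bases, and FPKM served as an alternative. Of 27685 IDs, 27559 had a RefSeq symbol.

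Genes averaging 1 TPM or more were tested with limma 3.58.1 (R 4.3.3) on log2(TPM + 1) with a mean-variance trend, two-sided, and Benjamini-Hochberg adjustment over all 13938. Fold changes understate those of low genes. Coverage of the 19 tested members ran from 1.33 to 919, and was at least 10 in every library for 15 of them. The script was checked on simulated data. Sums, ratios and motif searches used Python 3.11.15 with pandas 2.3.3 and numpy 2.4.6, and figures matplotlib 3.10.9. Every member is named, and of each related list up to 4 called genes with the largest change in each direction. A gene that this rule names is not reported here. Members and lists were chosen with earlier results of these data known. The 14 alternatives covered filters, pseudocounts, FPKM, 2 scalings, variance models, a replicate block and leaving out each library. Read counts were not used here, so no count test was run.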

Additional observations from a re-analysis of the deposited data

How the results depend on the processing

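The number of members called lower stayed between 5 and 9 in the 14 alternatives, beside 7 in the main analysis. Members called higher (2) numbered 1 in FPKM, 0 without the variance trend, and 0 with median-of-ratios scaling and quantile normalisation. Without a filter SLC7A8 and SLC38A10 both lost their calls (limma adjusted p = 0.0644 and 0.0767). The 1 member called higher there was one below the main filter. Over the log2 changes of single members and all alternatives, 228 values kept direction and side of the threshold, 11 gained a call, 16 lost one and 5 changed sign. All 5 were of SLC7A3, never called: main 0.02, FPKM -0.0016, median-of-ratios -0.11, quantile -0.073, and -0.052 to 0.093 when 1 library was left out, below 0 without barasertib replicate 1 (-0.052) or DMSO replicate 2 (-0.031).

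Median-of-ratios scaling and quantile normalisation gave 1534 and 1649 of all genes higher (main 3071) and 1891 and 1590 lower (main 1037), and 674 were lower without the variance trend. Leaving out 1 library gave 1365 to 2181 higher and 601 to 699 lower, fewest without barasertib replicate 1. Other amino acid carriers called higher (main 2) numbered 1 without a filter and with either scaling, and 1 without any 1 library. Those called lower (main 3) numbered 5 with a mean of at least 5 TPM, either scaling, robust empirical Bayes or the block, 2 without a filter or without the trend, and 1 to 3 without 1 library. Amino acid response genes called higher (main 1) numbered 0 with median-of-ratios scaling and 1 to 2 without 1 library. For mTORC1 sensing, either scaling gave 3 higher (main 5), and the lower calls (main 3) were 8 with median-of-ratios, 7 with quantile, 1 without a filter, 2 without the trend and 0 to 1 without 1 library. For the glutamine and glutathione enzymes, higher calls (main 6) were 4 in FPKM, with either scaling or without the trend and 3 to 5 without 1 library, and lower calls (main 3) were 4 with median-of-ratios, 2 without a filter or with robust empirical Bayes, 1 without the trend and 2 to 3 without 1 library. The cause was not tested, though leaving out a library leaves a lone sample assumed to vary like the other group.

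Median-of-ratios scaling moved the log2 ratios of summed levels to -0.68 for system XAG, -0.57 for system ASC, -0.51 for heavy chains, -0.91 for the light chains of SLC3A2, -0.29 for cationic carriers (-0.18 in FPKM), 0.020 for system A, 1.29 for system N and -0.17 for the other SLC38A genes.

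The labels do not say whether same-numbered libraries were made as pairs. Their deviations correlated at 0.0229 across 13938 genes, which with only 2 pairs cannot decide it. With the replicate block, 3 members were called higher and 8 lower, adding SLC38A2 (adjusted p = 0.0453) and SLC38A9, and 3218 of all genes were higher and 1080 lower. With 2 libraries a group and no read counts, small changes and low genes such as SLC38A1 and SLC7A7 were not resolvable.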
